A study of Homo sapiens with 3 samples.

Results

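A set of 9 genes named as regulators that act with merlin above the Hippo pathway were followed in AB12 cells labelled shNF2 and shSC: the atypical cadherins Fat1, Fat4 and Dchs1, the FERM and WW scaffolds Frmd6, Wwc1 and Wwc2, and the junction and polarity scaffolds Tjp1, Scrib and Dlg1. This set, and the lists of other genes below, were chosen with earlier results of these data known. The 9 were picked by gene symbol from the deposited table of 13936 genes, and 7 of the 9 had a row there. Fat4 and Dchs1 had none and were not analysed here. AB12 is a malignant mesothelioma line from an asbestos-exposed mouse. Treated cells gave 2 libraries labelled shNF2, a hairpin against Nf2, which carry the numbers 20 and 21. There was 1 library labelled shSC, a hairpin taken here as the control. All 3 libraries came from cells kept in RPMI with 10% serum. Whether 20 and 21 name hairpins or cultures is not stated, so p-values measure the spread between these libraries alone, which may be technical. The organism is labelled human, but the identifiers in the table are mouse Ensembl genes and the submitters' processing notes name mm10.

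Merlin, the product of Nf2, is a FERM protein at the cell cortex. In flies it works with Expanded and Kibra to bring the Hippo kinases to the apical membrane, where they are switched on and hold back the coactivator Yorkie, the counterpart of YAP and TAZ. The giant cadherins Fat and Dachsous feed into the same kinases from cell contacts. Scribble and Discs large, which set up the basolateral domain of epithelial cells, and the tight junction scaffold ZO-1 lie at the same cell borders in mammals. Mesothelial cells form a polarised sheet with such junctions.

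The libraries held 25837151 and 26829163 reads in genes for shNF2 libraries 20 and 21, against 29532600 for shSC. Values below are scaled counts, which are reads divided by 1 factor per library by the authors. Nf2 had 486 and 458 scaled counts in shNF2 libraries 20 and 21, against 1539 in shSC, a difference of -1.70 ± 0.24 on the log2 scale (SE; adjusted p = 0.00555, limma). Of 9 mesothelial markers 5 had a row, Msln and the keratin genes Krt7, Krt8, Krt18 and Krt19, whereas Wt1, Upk3b, Lrrn4 and Gpm6a had none. The 5 had a summed level of 39947 and 33759 scaled counts in shNF2 libraries 20 and 21 and 43900 in shSC. Members of that sum went both ways: Krt7 rose (290 and 183 scaled counts in libraries 20 and 21, against 49.7 in shSC; limma adjusted p = 0.0119), and Msln had a log2 fold change of 0.34. Krt18, the most abundant, had -0.36 and Krt8 -0.37. Krt19 had -0.86, with 3016 and 2618 scaled counts in libraries 20 and 21, against 5113 in shSC (limma adjusted p = 0.0996). Of 6 macrophage markers 3 had a row, summing to 2942 and 1855 scaled counts in libraries 20 and 21 and 3367 in shSC, and none of Ptprc, Adgre1 and Csf1r had one. Most of that sum was Cd14, with 2576 and 1659 scaled counts in libraries 20 and 21 and 3222 in shSC, whereas Lyz2 had 260.5 and 108 in these libraries and 56.5 in shSC, and neither passed the test. The 2 fibroblast markers with a row summed to 20.9, 21.4 and 13.6 scaled counts in that order, and no endothelial marker had a row. The part of other cells in the results below was not tested. In such bulk RNA, a change in the number of cells that make a transcript and a change in its level per cell cannot be told apart.

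None of the 7 members passed the test of shNF2 against shSC, in which limma was run over all 12813 genes with a mean of at least 10 scaled counts and called 0.843% of them at an adjusted p under 0.05. All 7 members were tested, and each library held between 337 and 5480 reads of each of them. At an unadjusted p under 0.05 there were 2 of the 7, Fat1 and Tjp1, where 9.27% of all genes tested had such a p. edgeR also called 0 members (0.632% of all genes called; 2 members at an unadjusted p under 0.05, against 9.12% of genes). DESeq2 called 0 as well (0.765% of all genes called; 2 members at an unadjusted p under 0.05, against 5.56% of genes). With 2 libraries against 1, an exact permutation test of a single gene cannot go below 0.333. Fat1, Frmd6, Wwc2, Tjp1 and Dlg1 lay above shSC in both shNF2 libraries, which is 5 of 7 members, and so did 36.1% of all genes tested and 37.2% of those with a mean of at least 100 scaled counts. Scrib alone lay below shSC in both, as did 35.8% of all genes tested. Both libraries are set against the same shSC library, so these counts hold its chance value. The members had a median log2 fold change of 0.48 (0.36 in library 20 and 0.56 in library 21), where the median of all genes tested was -0.004 with lower and upper quartiles of -0.24 and 0.22. Because the set was chosen with earlier results known, these counts and medians are descriptions and no test of the set.

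**Figure D1:**
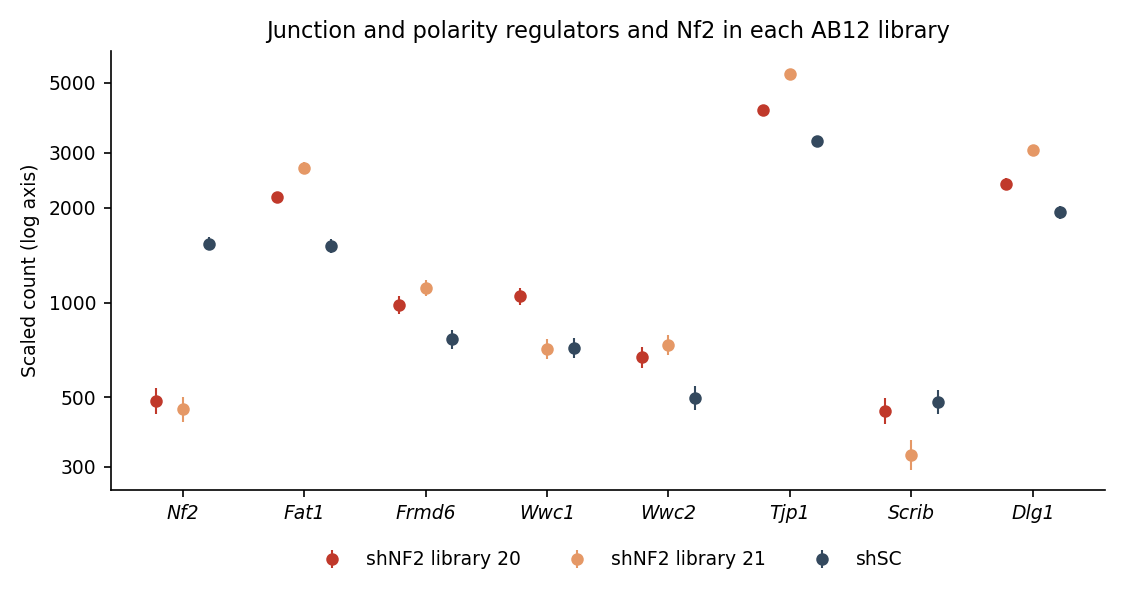
Scaled counts of Nf2 and the 7 members (log axis) in shNF2 library 20, shNF2 library 21 and shSC, 1 point per library, with exact 95% counting intervals that cover counting error only. Nf2 is lower in both shNF2 libraries, Fat1, Frmd6, Wwc2, Tjp1 and Dlg1 are higher in both, Wwc1 is higher in library 20 alone, and Scrib is lowest in library 21.

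Fat1, a giant atypical cadherin that in human cancer cells serves as a platform for the Hippo kinases, had the largest fold change of the 7 in the mean and in library 21, while in library 20 Wwc1 was above it. It had 2160 and 2689 scaled counts in shNF2 libraries 20 and 21, against 1513 in shSC. Both shNF2 libraries were above shSC, and library 21 was above library 20. The ratio to shSC was 1.43 in library 20 (exact 95% counting interval 1.34 to 1.53) and 1.78 in library 21 (1.67 to 1.89), intervals that cover counting error only and compare single libraries. The log2 fold change was 0.67 ± 0.22 (SE), with a 95% interval of 0.19 to 1.16. It missed the threshold over all genes (limma adjusted p = 0.292). The ratio of library 21 to library 20 was 1.24 (counting interval 1.18 to 1.32), so the spread between the shNF2 libraries was itself larger than counting error.

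Among the FERM and WW scaffolds, Frmd6 and Wwc2 were higher in both shNF2 libraries and Wwc1 in library 20 alone. Frmd6 encodes a FERM protein regarded as a mammalian relative of fly Expanded. It had 981 and 1109 scaled counts in shNF2 libraries 20 and 21, against 764 in shSC. Its log2 fold change was 0.45 ± 0.23 (SE), with a 95% interval of -0.05 to 0.95 (limma adjusted p = 0.608). Wwc2, which encodes a relative of KIBRA with paired WW domains, had 668 and 732 scaled counts in shNF2 libraries 20 and 21, against 497 in shSC. Both shNF2 libraries lay above the lone shSC library, as they did for 36.1% of all genes tested. The shNF2 libraries lay within counting error of each other, with a ratio of library 21 to library 20 of 1.09 whose counting interval starts at 0.984. The log2 fold change of Wwc2 was 0.49 ± 0.24 (SE), with an interval of -0.03 to 1.02 (limma adjusted p = 0.579).

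Wwc1, the gene of KIBRA itself, which binds the LATS kinases, separated the shNF2 libraries. It had 1046 and 713 scaled counts in shNF2 libraries 20 and 21, against 717 in shSC. Library 20 stood above shSC by a ratio of 1.46 (counting interval 1.33 to 1.61), and library 21 was at 0.996 of shSC (0.898 to 1.10). Library 21 was thus at 0.682 of library 20 (0.619 to 0.751). The log2 fold change of 0.27 ± 0.27 (SE; 95% interval -0.31 to 0.85, adjusted p = 0.804 by limma) rested on library 20, since it was -0.01 without that library and 0.55 without library 21. Wwc1 and Wwc2 went apart in library 21, where their log2 fold changes were -0.01 and 0.56, and had 0.55 and 0.43 in library 20.

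**Figure D2:**
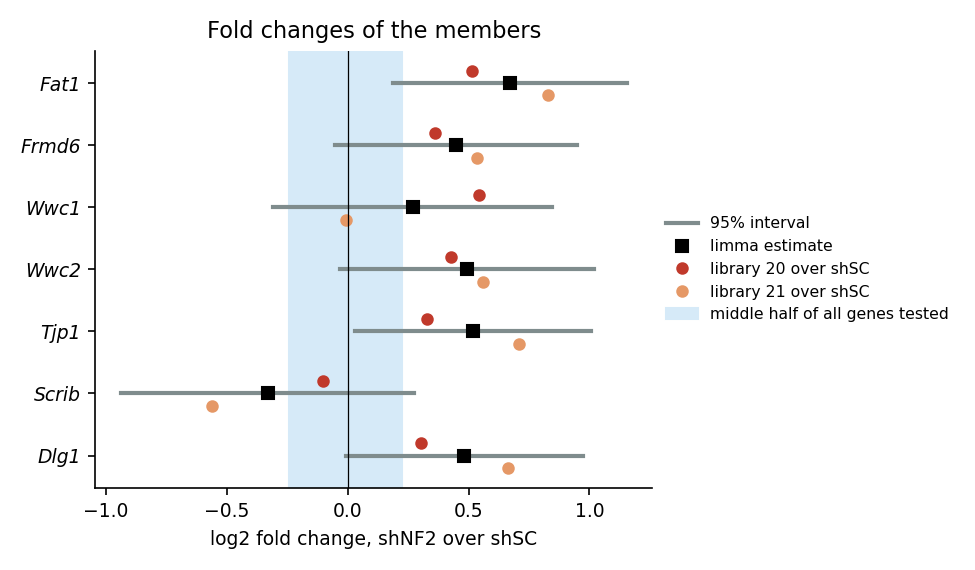
Log2 fold change of each member, shNF2 over shSC: squares are limma estimates with 95% intervals, circles the values of library 20 and library 21, and the shaded band runs between the quartiles of all genes tested (-0.24 and 0.22). The intervals of Fat1 and Tjp1 lie above 0, the other 5 include 0, and library 21 lies farther from 0 than library 20 for every member except Wwc1.

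Of the junction and polarity scaffolds, Tjp1 and Dlg1 were higher in both shNF2 libraries and Scrib was lower. Tjp1 encodes ZO-1, a scaffold of the MAGUK class (membrane-associated guanylate kinase homologues) that ties tight junction strands to actin. It had 4096 and 5327 scaled counts in shNF2 libraries 20 and 21, against 3261 in shSC. Its ratio to shSC was 1.26 in library 20 (counting interval 1.20 to 1.32) and 1.63 in library 21 (1.56 to 1.71). The log2 fold change was 0.52 ± 0.23 (SE), with a 95% interval that starts at 0.03 (limma adjusted p = 0.491).

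Dlg1 encodes SAP97, another MAGUK and the mammalian counterpart of fly Discs large. It had 2388 and 3062 scaled counts in shNF2 libraries 20 and 21, against 1935 in shSC. All of its shNF2 values were above shSC, by ratios of 1.23 (1.16 to 1.31) in library 20 and 1.58 (1.50 to 1.67) in library 21. The log2 fold change was 0.48 ± 0.23 (SE; 95% interval -0.01 to 0.97, limma adjusted p = 0.544). Tjp1 and Dlg1 had the most similar pair of values among the members, at a distance of 0.05 in the plane of both libraries' log2 fold changes, where Fat1 and Scrib were 1.52 apart.

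Scrib, whose product carries leucine-rich repeats and PDZ domains and works with Discs large at the basolateral membrane, was the exception in sign. It had 451 and 328 scaled counts in shNF2 libraries 20 and 21, against 484 in shSC. Library 20 was within counting error of shSC (ratio 0.932, 0.817 to 1.06), and library 21 was lower (0.677, 0.588 to 0.779). The log2 fold change was -0.33 ± 0.28 (SE), with a 95% interval of -0.94 to 0.28 (limma adjusted p = 0.771). It was -0.56 without library 20 and -0.10 without library 21. Over the 7 members the adjusted p ran from 0.292 to 0.804, and intervals of this width do not show that any of them stayed at the level of shSC.

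**Figure D3:**
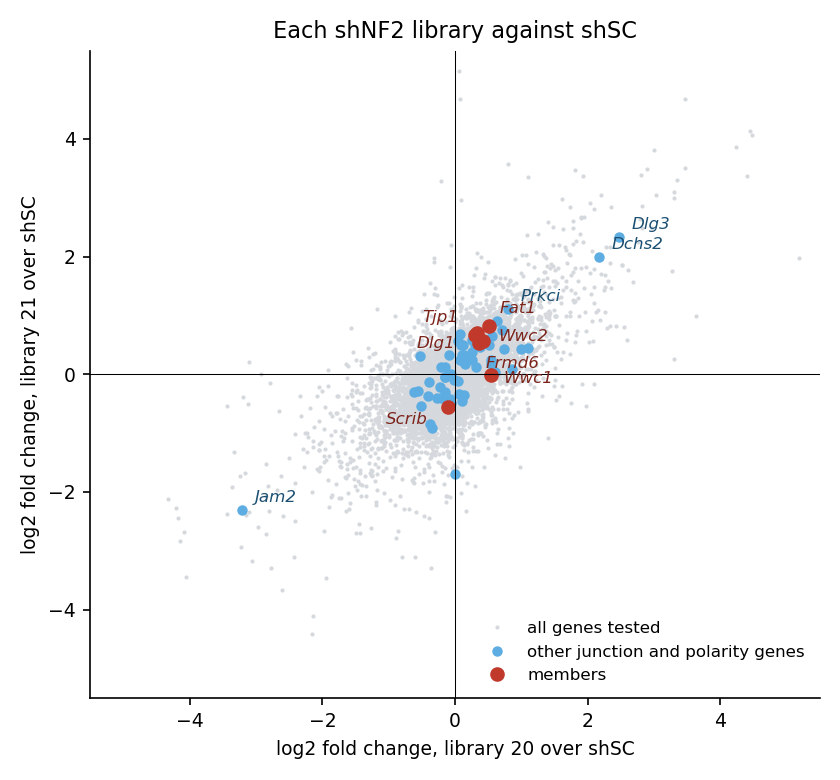
Log2 fold change over shSC in library 20 (x axis) and library 21 (y axis) for all genes tested, 62 other junction and polarity genes and the 7 members; both axes share the shSC library. Fat1, Frmd6, Wwc2, Tjp1 and Dlg1 sit together at 0.30 to 0.51 in library 20 and 0.54 to 0.83 in library 21, with Wwc1 and Scrib apart from them.

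Levels of different genes were set side by side only per kilobase of transcript. No mouse annotation was used here, so the human GENCODE v29 transcript with the longest coding sequence of the same symbol stood in. On that scale Tjp1 was highest, with 607 and 789 scaled counts per kilobase in shNF2 libraries 20 and 21 and 483 in shSC. Dlg1 came next with 474 and 608 in shNF2 libraries 20 and 21, against 384 in shSC, and Frmd6 followed with 330 and 373, against 257. Wwc1 had 294 and 200 scaled counts per kilobase in shNF2 libraries 20 and 21, against 201 in shSC. Fat1, whose stand-in transcript of 14758 bases is the longest of the 7, had 146 and 182, against 103 in shSC. Wwc2 had 105 and 115 in shNF2 libraries 20 and 21, against 78.1 in shSC, and Scrib 86.4 and 62.8, against 92.7. The order was the same in both shNF2 libraries, and in shSC only the lowest pair, Wwc2 and Scrib, changed places. Wwc1 and Fat1 lay 18.1 scaled counts per kilobase apart in library 21, less than the gap of 93.4 between the shNF2 libraries in Wwc1. Per kilobase of coding sequence instead of transcript, Dlg1 was above Tjp1 and Wwc2 above Fat1 in every library.

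Transcript GC content and length moved with the fold changes of library 21. Across 10328 tested genes with a stand-in, GC content and log2 fold change had a Spearman's rho of -0.374 in library 21 and -0.035 in library 20; with transcript length it was 0.308 and 0.029. These are descriptions across genes that share the same 3 libraries. The 5 members above shSC in both libraries had stand-in GC contents of 38.7% (Dlg1) to 46.2% (Fat1). With genes split into 8 equal groups by GC content, the groups that held these 5 members had median log2 fold changes of 0.11 to 0.18 in library 21 and 0.01 to 0.04 in library 20. Scrib, at 66.5%, fell in the group with the highest GC content, whose median was -0.32 in library 21 and -0.04 in library 20. Wwc1, at 56.3%, fell in a group with medians of -0.09 and 0.04.

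Each library's trend on length and GC content was then subtracted, a step chosen after the data had been seen. The direction of every member's mean log2 fold change over both shNF2 libraries was kept. In library 21 alone Wwc1 went from -0.01 to 0.05, so 6 members lay above shSC in both libraries after this step. The sixth rests on that 0.05, and before this step the counting interval of that ratio was 0.898 to 1.10. No share of all genes above shSC in both libraries is given for this step, so the count of 6 cannot be set against it. Fat1 then had 0.56 (0.53 in library 20 and 0.58 in library 21; limma adjusted p = 0.168). Tjp1 had 0.39, Wwc2 0.37, Dlg1 and Frmd6 0.36 each, Wwc1 0.28 and Scrib -0.20, the last of these being moved by over 1.5 times. No member passed the test after this step. The gap of Fat1 between the shNF2 libraries shrank to 0.05 on the log2 scale, where it was 0.32 before. Larger gaps remained in the other members. Wwc1 had 0.51 and 0.05 in libraries 20 and 21 after this step, and Scrib -0.06 and -0.34. In the same order Tjp1 had 0.30 and 0.48, Dlg1 0.27 and 0.45, Frmd6 0.31 and 0.41, and Wwc2 0.40 and 0.33.

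**Figure D4:**
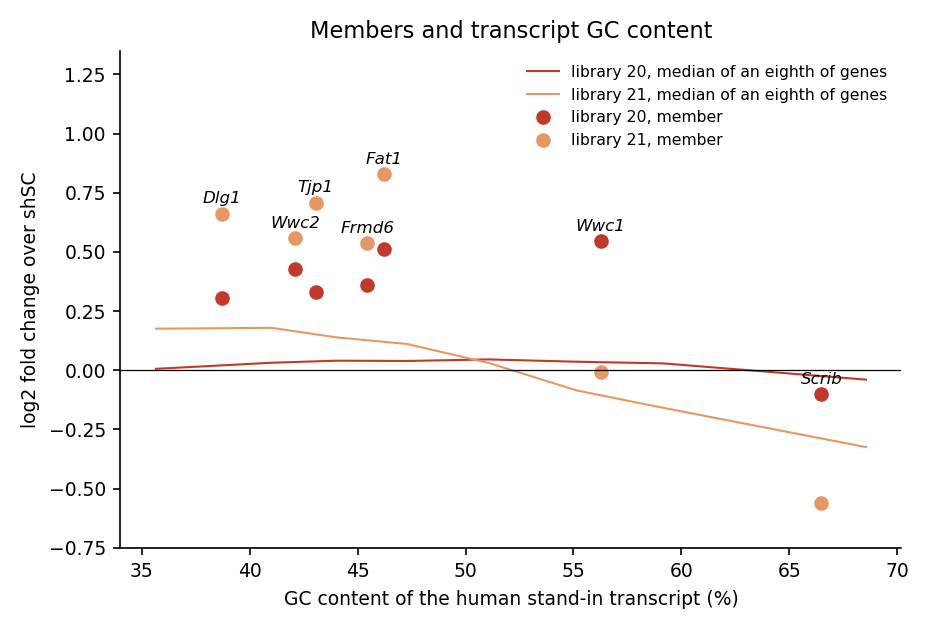
Log2 fold change over shSC of each member (circles) in library 20 and library 21 against the GC content of its human stand-in transcript; lines join the medians of 8 equal groups of tested genes. The median line of library 21 runs from 0.18 at low GC content to -0.32 at high GC content, that of library 20 stays between -0.04 and 0.05, and the 5 members at low GC content lie above both lines.

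Other genes of the same junctions and polarity complexes were read from 6 lists with 93 genes, of which 65 had a row and 62 were tested. Of these, 1 rose and 1 fell by limma, where 0.414% of all genes tested were called higher and 0.429% lower. Above shSC in both libraries were 34 of the 62 and below it 20, where 36.1% and 35.8% of all genes tested were, and their median log2 fold change was 0.18. By edgeR 0 were called higher and 1 lower, where 0.226% and 0.406% of all genes were called in those directions, and by DESeq2 1 higher and 0 lower, where these shares were 0.320% and 0.445%. The gene called lower by edgeR was Jam2, as with limma, and the gene called higher by DESeq2 was Prkci.

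In the list of Scribble-module and MAGUK genes (11 tested, median 0.22), Dlg3 rose and no gene fell. Dlg3 encodes SAP102, a paralogue of Dlg1 known from synapses. It had 96.2 and 87.5 scaled counts in shNF2 libraries 20 and 21, against 16.6 in shSC, from 92 and 90 reads against 17. The ratio to shSC was 5.81 in library 20 (counting interval 3.44 to 10.4) and 5.29 in library 21 (3.12 to 9.47), and the log2 fold change was 2.40 ± 0.42 (SE; limma adjusted p = 0.016). The call was lost with edgeR (adjusted p = 0.0516), DESeq2 (0.0804), quantile normalization (0.496) and without a variance trend (0.106).

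In the tight junction list (12 tested, median 0.14), Jam2 fell and no gene rose. Jam2 encodes a junctional adhesion molecule of the immunoglobulin superfamily. It had 11.5 and 22.4 scaled counts in shNF2 libraries 20 and 21, against 115 in shSC, or -2.76 ± 0.53 on the log2 scale (SE; adjusted p = 0.0276, limma). Both shNF2 libraries were far below shSC, with ratios of 0.100 (0.0487 to 0.186) and 0.195 (0.119 to 0.306). The call was lost with DESeq2 (adjusted p = 0.0736), length and GC correction (0.0549), quantile normalization (0.523) and without a variance trend (0.188), and at a minimum mean of 50 Jam2 was not tested.

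No gene of the other 4 lists passed. Among Fat, Dachsous and planar polarity genes (10 tested, median -0.16), the Dachsous cadherin gene Dchs2 had 42.9 and 37.9 scaled counts in shNF2 libraries 20 and 21, against 8.76 in shSC, or 2.08 ± 0.52 on the log2 scale (SE; adjusted p = 0.105, limma). The shSC value of Dchs2 rests on 9 reads. Among the alternatives that keep all libraries, it passed only without the filter on low values (adjusted p = 0.0377), a fit that called 1.66% of all genes. Dvl1, an adaptor shared by Wnt and planar polarity signalling, had a log2 fold change of -0.63 (limma adjusted p = 0.435), which was -0.91 without library 20 and -0.35 without library 21. Its human stand-in had a GC content of 67.2%, and the log2 fold change was -0.47 after length and GC correction.

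In the Crumbs and PAR polarity list (10 tested, median 0.13), Prkci, the gene of the atypical protein kinase C of the PAR complex, had 3636 and 4511 scaled counts in shNF2 libraries 20 and 21, against 2091 in shSC. Its log2 fold change was 0.95 ± 0.22 (SE; limma adjusted p = 0.0756). It passed in 4 of the 12 alternatives that keep all libraries. These were DESeq2 (adjusted p = 0.0409), limma without the filter (0.0167), and limma after correction for length alone (0.0251) or length and GC content (0.0463). Prkci missed in the others, such as edgeR (adjusted p = 0.124), quantile normalization (0.619) and limma without a variance trend (0.422). Pard6b, which encodes the adaptor bound to that kinase, had 575 and 390 scaled counts in shNF2 libraries 20 and 21, against 288 in shSC (log2 fold change 0.71, limma adjusted p = 0.444, and 0.43 without library 20). The pair were both above shSC in each shNF2 library, with Prkci highest in library 21 and Pard6b in library 20.

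Among the 11 adherens junction genes tested (median 0.23), Ajuba, a LIM protein that binds LATS kinases at cell contacts, had 1023 and 1058 scaled counts in shNF2 libraries 20 and 21, against 624 in shSC (log2 fold change 0.74, limma adjusted p = 0.239). Mllt4, the gene of afadin, which links nectins to actin, had a log2 fold change of 0.40 (limma adjusted p = 0.631). Among the 8 genes of FERM, KIBRA and MAGI partners tested (median 0.19), Ptpn14, a phosphatase that binds YAP and KIBRA, had 0.47 (limma adjusted p = 0.603) and the MAGI scaffold gene Magi3 0.42 (0.642).

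**Figure D5:**
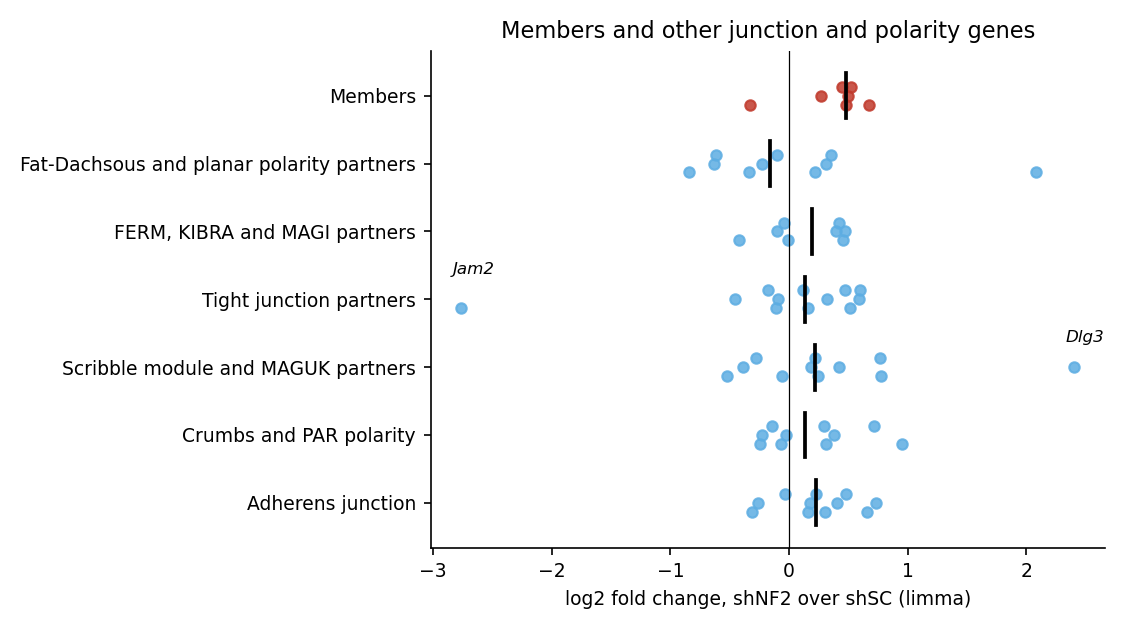
Limma log2 fold changes (shNF2 over shSC) of the 7 members and of the 62 tested genes in 6 lists of other junction and polarity genes; each point is a gene and the black bar is the median. Dlg3 and Jam2 are the labelled genes that passed at an adjusted p under 0.05, and the medians of the lists run from -0.16 to 0.23, with 0.48 for the members. Members and lists were chosen with earlier results of these data known.

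The genes whose pair of log2 fold changes lay nearest to that of Fat1 were Tpx2, Rhobtb3, Top1mt, Lurap1l and Tgfbr2, at Euclidean distances of 0.02 to 0.03 over both shNF2 libraries, among genes with a mean of at least 100 scaled counts. Tpx2, for example, had 4551 and 5737 scaled counts in shNF2 libraries 20 and 21, against 3188 in shSC. With 3 libraries such a likeness rests on 2 differences that share shSC.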

How the data were processed

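RNA of 3 AB12 libraries was polyA-selected and sequenced as stranded, paired libraries, per the labels' protocols. The authors deposited 1 table of gene signal, named there as scaled counts: per the values, dividing whole reads by 1 factor per library gives every entry (0.956 and 1.03 for shNF2 libraries 20 and 21, 1.03 for shSC), and 100% of values came out whole within 0.001 reads. The submitters' processing notes list DESeq 1.22.1, HTSeq 0.5.3, STAR 2.5.0a and cutadapt 1.6 without saying what each did. How the counting treated strand is not stated in them. No gene in the table had under 15 reads in all, which points to a filter before deposit that the sources do not describe. The 4 rows that name no gene held 48.7%, 47.7% and 48.6% of the summed values in libraries 20 and 21 and shSC and were left out.

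Groups came from the labels. limma 3.58.1 (R 4.3.3) with a variance trend was run on log2(scaled count + 1) for the 12813 genes averaging 10 or more, and p-values were adjusted over all of them by the Benjamini-Hochberg method; fold changes on this scale understate low genes. Only the pair of shNF2 libraries gives a spread (1 residual and 11.9 prior degrees of freedom), and shSC, with no replicate, is taken to vary as they do. Alternatives were edgeR 4.0.16 and DESeq2 1.42.0 on the whole reads, other pseudocounts, filters and scalings, limma with robust moderation or no trend, each shNF2 library left out, and a length correction; a joint length and GC correction was added after the data had been seen (mgcv 1.9.3, human stand-ins for 80.6% of tested genes and all 7 members). Counting intervals are exact at 95% and cover counting error only. Named genes are Nf2, the members, partner-list genes passing the test (otherwise the 2 with the smallest p in a list) and the 5 nearest to the member with the smallest p, unnamed gene models skipped. The members and lists were chosen with earlier results of these data known. The scripts were tested on simulated data.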

Additional observations from a re-analysis of the deposited data

How the results depend on the processing

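No member passed the test under any of 12 alternatives that keep all libraries, and every member kept the sign of its log2 fold change under each of them. With a library left out, Wwc1 turned to -0.01 without library 20, and the other members kept their sign. The members' median log2 fold change ran from 0.36 (length and GC correction) to 0.49 (DESeq2), and was 0.56 without library 20 and 0.36 without library 21. The lowest adjusted p of any member was 0.168, that of Fat1 after length and GC correction. The count of members above shSC in both libraries was 5 or 6 under the 10 of these that used limma. Nf2 missed the threshold in 2 of the 12, with -1.72 on the log2 scale and an adjusted p of 0.496 after quantile normalization, and with -1.70 and 0.187 when limma used no variance trend. In those 2 fits, which missed even the targeted gene, the lack of a call says little about the members. Among partner genes, where 1 was called higher and 1 lower, 3 were called higher without the filter on low values, 2 after length correction, 2 after length and GC correction, and 0 under quantile normalization, without a variance trend or with edgeR. The number called lower was 0 at a minimum mean of 50, under quantile normalization, without a variance trend, with DESeq2 and after length and GC correction. At a minimum mean of 50 Jam2 was not among the genes tested. For the other changes the cause was not tested. The fit without the filter called 1.66% of all genes in either direction, and the shares for edgeR and DESeq2 are given above. For the remaining alternatives no share over all genes is given here, so their counts of partner genes cannot be set against it. The share of all genes above shSC in both libraries is given for the main fit alone. Without either shNF2 library 1 stood against 1, which gives values and no calls. No paired analysis was possible because the groups share no replicate number. Between the shNF2 libraries every member except Wwc2 differed by more than counting error, and with 1 shSC library the spread of that group has no estimate.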
